A study of Mus musculus with 10 samples.

Results

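Potassium channel genes were followed in cultured mouse cortical neurons that received a histone variant by lentivirus, the neurotrophin BDNF, both or neither. The set holds every gene whose symbol starts with Kcn and whose raw counts averaged at least 1 CPM, a count scaled to a common library total, over the 8 distinct libraries, which was met by 71 of 86 such symbols in a table of 48526 genes. The lowest members were Kcng2 at 1.04 CPM and Kcne5 at 1.25 CPM, and the highest symbols outside were Kcnrg at 0.925 CPM and Kcng3 at 0.577 CPM. Of the 71 members, 69 are annotated as protein-coding, and Kcnq1ot1 and Kcnmb4os2 are noncoding RNAs that carry the prefix but encode no channel subunit.

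All cultures came from the cortices of wild-type C57BL/6J embryos at E16.5 per the growth protocol, were grown on coated plates and received 0.5 µM AraC, which kills dividing cells. H2BE+BDNF neurons received a lentivirus that expresses H2BE, a replacement variant of histone H2B, from a constitutively active promoter, together with BDNF. BDNF neurons received a control lentivirus and BDNF, H2BE neurons received the H2BE lentivirus alone, and Control neurons received the control lentivirus alone. RNA was taken 24 h later and sequenced as polyA libraries. Expression from the virus was not restricted to a cell type, no dose of BDNF is given, and the labels do not say whether replicates are separate cultures, so the p-values cover the spread from sample to sample alone, which may be technical.

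Potassium channels let potassium leave the cell and thereby set the resting potential, repolarise the action potential and limit repetitive firing. Voltage-gated (Kv) channels open on depolarisation, calcium-activated channels follow calcium entry, inward rectifiers hold the membrane near rest, and tandem-pore channels carry leak current. Many work with auxiliary subunits that change their gating or surface level, and some Kv subunits are silent alone and modify the Kv2 channels they join.

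The table holds 10 libraries, but the third Control library and the third BDNF library each exceeded the first library of its group at 0 genes, and their totals were 73.7% (Control) and 61.9% (BDNF) of it. They were counted as one sample with those first libraries, which leaves 8 distinct libraries, 2 per group, numbered 1 and 2 for Control and BDNF and 2 and 3 for H2BE and H2BE+BDNF as in the labels, with 5058074 to 14142545 counts each. A level of 3 counts corresponds to 0.212 CPM in the deepest and 0.593 CPM in the shallowest of them. H2bc21, the gene carried by the virus, had 31.9 and 34.95 CPM in H2BE+BDNF neurons, against 42.7 and 35.6 CPM in H2BE neurons, and 3.84 and 4.08 CPM in BDNF neurons, against 5.43 and 5.13 CPM in Control neurons. Arc, an activity-regulated gene, had 35.7 and 39.3 CPM in H2BE+BDNF neurons, against 2.40 and 1.39 CPM in H2BE neurons, and 45.1 and 34.1 CPM in BDNF neurons, against 2.49 and 3.25 CPM in Control neurons. Libraries with and without the H2BE virus did not overlap for H2bc21, nor did those with and without BDNF for Arc. Neuronal markers summed to 6516 to 6525 CPM in H2BE+BDNF against 6465 to 6523 CPM in H2BE neurons. In BDNF neurons they summed to 6724 to 7066 CPM, against 6146 to 6284 CPM in Control neurons. The largest part was Map2, averaging 2507 CPM in H2BE+BDNF against 1974 CPM in H2BE neurons, and 2626.5 CPM in BDNF against 1746 CPM in Control neurons. Single markers moved in opposite directions, and Tubb3 averaged 1009 against 1297 CPM and 951 against 1303.5 CPM in the same groups. Of these 9 markers, 3 were called higher and 4 lower with BDNF under the H2BE virus. Under the control virus 3 were called higher and 3 lower. Of all genes tested, 13.4% were called higher and 12.3% lower with BDNF under the H2BE virus. Under the control virus these shares were 16.8% and 14.6%. The endothelial list did not exceed 4.45 CPM. Markers of other cells were present. The astrocyte list summed to 439 to 447 CPM in H2BE+BDNF neurons and 433 to 465 CPM in BDNF neurons. Its sums were 455 to 456 CPM in H2BE neurons and 376 CPM in both Control samples. Most of each sum was Slc1a2, averaging 393 CPM in H2BE+BDNF, 375.6 CPM in BDNF, 399 CPM in H2BE and 315 CPM in Control neurons. Progenitor markers summed to 231 to 236 CPM in H2BE+BDNF against 97.0 to 98.6 CPM in H2BE neurons. In BDNF neurons they summed to 223 to 241 CPM, against 106 to 111 CPM in Control neurons. These differences came mainly through Vim. Of the 7 genes, 2 were called higher with BDNF under the H2BE virus and 5 under the control virus, where 13.4% and 16.8% of all genes were. The oligodendrocyte lineage list summed to 83.3 to 86.8 CPM in H2BE+BDNF against 47.1 to 51.5 CPM in H2BE neurons, and to 75.6 to 84.2 CPM in BDNF against 42.6 to 47.0 CPM in Control neurons, with Mbp the only one of its 7 genes tested that was called in either BDNF comparison. The part of these cells in the values of the Kcn genes was not tested.

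Divided by the length of the longest annotated transcript, the most abundant member in Control neurons was Kcnj4, a strong inward rectifier, at 55.6 CPM per kilobase. It stood at 40.3 in H2BE+BDNF against 51.3 CPM per kilobase in H2BE neurons, and at 45.9 CPM per kilobase in BDNF neurons. The A-type channel gene Kcnd2 at 27.9, the Kv beta subunit gene Kcnab2 at 24.8 and Kcnj3, a G protein-gated inward rectifier, at 21.3 CPM per kilobase were also among the higher members in Control neurons. By subfamily, the 10 inward rectifiers and the 4 Kv7 genes made up the largest shares of the summed level per kilobase in Control neurons, 17.6% and 12.8%. Kv1 members held 9.64% and tandem-pore members 9.44%, while the single BK gene held 1.31%. Per kilobase, the leading member was Kcna6 (17.7) for Kv1, Kcnc4 (15.3) for Kv3 and Kcnh3 (12.3) for the EAG, ERG and ELK group. It was Kcnf1 (16.9) for the silent subunits, Kcnip1 (12.3) for the KChIPs, Kcnk1 (17.5) for the tandem-pore group and Kcnn2 (6.89) for SK.

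**Figure D1:**
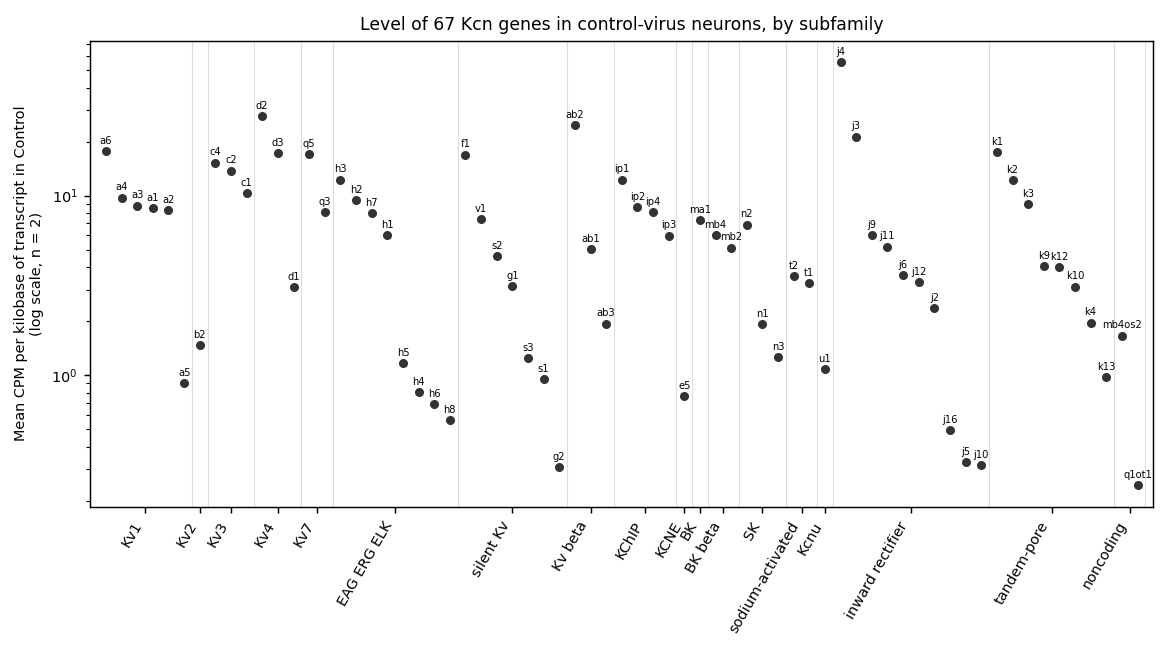
Mean level of 67 Kcn genes in Control neurons (n = 2), in CPM per kilobase of transcript on a log axis, grouped by subfamily, with symbols shortened by the prefix Kcn. Kcnj4 stands at the top at 55.6 CPM per kilobase, and Kcnd2 stands at 27.9.

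BDNF changed many potassium channel genes under either virus. Under the H2BE virus, 7 of 71 members rose and 18 fell, where 25.8% of the 13452 genes tested were called in either direction, 13.4% higher and 12.3% lower. Under the control virus, 18 of 71 members rose and 13 fell, where 31.4% of all genes tested were called, 16.8% higher and 14.6% lower. Calls rest on edgeR's quasi-likelihood test at an adjusted p under 0.05 over all genes, and every member passed the filter on low counts. The share of members called was 35.2% under the H2BE virus and 43.7% under the control virus. The median log2 fold change of the members was -0.16 under the H2BE virus and 0.00 under the control virus, where the medians of all genes were 0.00 and -0.01. In bulk RNA, fewer cells of a type and less RNA per cell cannot be told apart. Without Control replicate 1, 8 members rose and 7 fell under the control virus, where 9.01% of all genes were higher and 7.51% lower. DESeq2 called 10 members higher and 8 lower under the control virus, where it called 19.9% of all genes. Without H2BE replicate 2, 8 members fell under the H2BE virus, where 6.38% of all genes were called lower, and without H2BE+BDNF replicate 2, 11 fell, where 7.51% were. The 16 alternative settings named below change the tool, the scaling, the filter, the libraries or the correction for transcript length and GC content, and the value in parentheses beside each is the log2 fold change there. The number of pore-forming members called was 3 higher and 14 lower of 52 under the H2BE virus, and 12 higher and 10 lower under the control virus. A call under 1 virus alone does not show that the response differed between the viruses. The test of that difference, given below, called 2 of 71 members, where 1.15% of all genes were called.

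**Figure D2:**
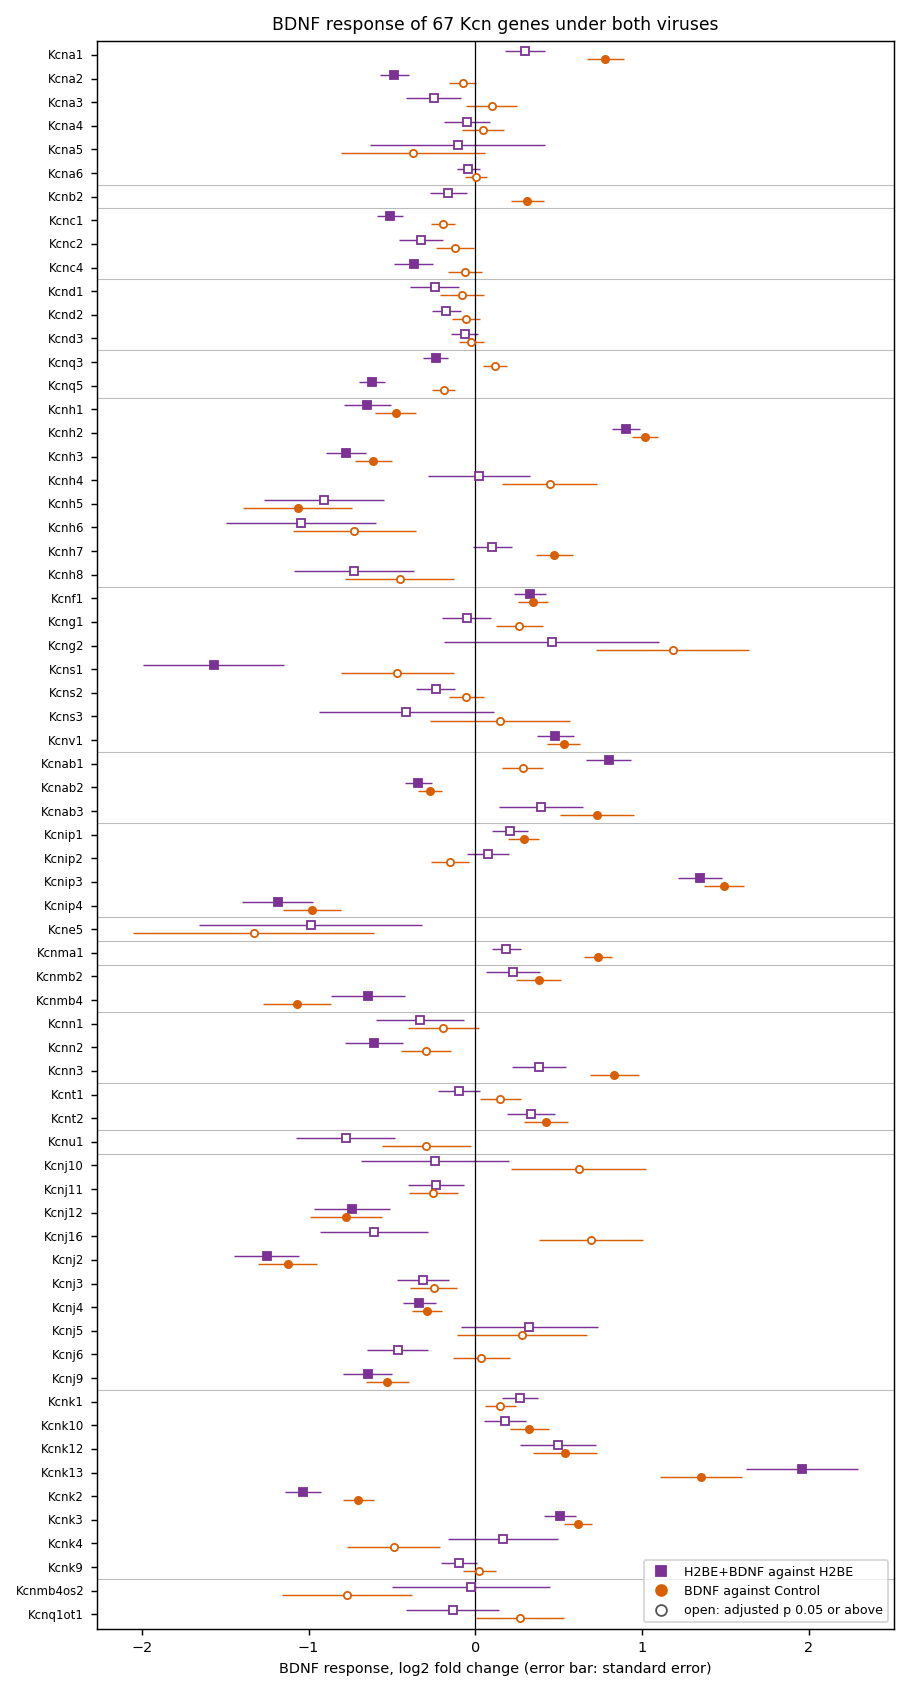
BDNF response of 67 Kcn genes as a log2 fold change with its standard error, H2BE+BDNF against H2BE (squares) and BDNF against Control (circles), grouped by subfamily in the order of the level plot. Filled symbols passed an adjusted p of 0.05, and Kcnip3, Kcnk13 and Kcnh2 lie farthest to the right among them under both viruses.

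A set of 3 letter patterns, written after sites of stimulus-dependent factors, was searched on both strands of promoter windows. These are the RefSeq windows of GRCm38.p6, which run from 250 bases before to 50 bases after a start site. Windows matched 50 of 71 members by symbol, 73 windows in all. The CRE pattern TGACGTCA was in 0 of 73 windows, against 1.79% of 32851 windows of all genes. The EGR pattern GCGNGGGCG was in 3 of 73 (Kcna4, Kcnk2 and Kcnt2), which is 4.11%, against 5.55% of all windows. The AP-1 pattern TGANTCA, searched with any base at N, was also in 3 of 73, against 7.81% of all windows. The letters matched were TGACTCA in Kcnip3 and Kcnk2 and TGATTCA in Kcnip4. The usual AP-1 sequence has C or G at N, so the Kcnip4 match fits only the looser pattern. The share of 7.81% also counts any base at N. Its 3 genes were Kcnip3, which rose with BDNF under both viruses, and Kcnip4 and Kcnk2, which fell under both. All 3 windows with the AP-1 pattern are shown. The BDNF calls of these genes held under every one of the 16 alternative settings. Stretches around each match are printed 5′ to 3′ on the strand of the gene, which is minus for all of them, with the match in capitals. They lie at chr2:127522110-127522316 for Kcnip3, chr5:49285660-49285841 for Kcnip4 and chr1:189344212-189344418 for Kcnk2.
Kcnip3: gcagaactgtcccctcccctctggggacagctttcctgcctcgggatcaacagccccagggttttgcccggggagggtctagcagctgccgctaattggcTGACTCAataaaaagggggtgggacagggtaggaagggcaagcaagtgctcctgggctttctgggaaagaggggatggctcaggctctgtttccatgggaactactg
Kcnip4: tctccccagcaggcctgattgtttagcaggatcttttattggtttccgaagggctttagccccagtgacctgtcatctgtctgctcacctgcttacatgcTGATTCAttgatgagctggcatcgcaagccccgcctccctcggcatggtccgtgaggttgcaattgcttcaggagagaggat
Kcnk2: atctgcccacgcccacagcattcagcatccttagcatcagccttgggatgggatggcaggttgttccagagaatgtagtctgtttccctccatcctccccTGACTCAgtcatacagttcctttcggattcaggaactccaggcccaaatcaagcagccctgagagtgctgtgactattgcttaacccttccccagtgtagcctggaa
The match ends 116 bases before the start site of its window in Kcnip3, 76 in Kcnip4 and 120 in Kcnk2. The Kcnip3 stretch lies just before the annotated 5′ end of its gene, at position 127522094. The other stretches lie inside their genes, whose annotated 5′ ends are at 49524907 for Kcnip4 and 189402273 for Kcnk2. Their windows thus belong to start sites within the gene, and use of those in these neurons was not tested. A match is a run of letters and not a binding site, and a window without one says only that the letters are absent there.

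Among the Kv1 genes, which encode low-threshold channels of axons and terminals, Kcna1 rose under the control virus and Kcna2 fell under the H2BE virus. The test of the difference between the viruses called 0 of 6 Kv1 genes, where it called 1.15% of all genes. Kcna1 (chr6:126640397-126646384, mm10) had 45.6 and 51.9 CPM in H2BE+BDNF neurons, against 42.5 and 36.2 CPM in H2BE neurons, and 57.0 and 60.1 CPM in BDNF neurons, against 30.9 and 38.0 CPM in Control neurons. Both BDNF samples were above both Control samples, and the H2BE+BDNF samples were above the H2BE samples by less. The log2 fold change was 0.30 ± 0.12 (adjusted p = 0.079) under the H2BE virus and 0.78 ± 0.11 (adjusted p = 4.7e-05) under the control virus, with standard errors after the sign. Kcna2 averaged 75.3 ± 1.1 CPM in H2BE+BDNF and 105 ± 8.8 CPM in H2BE neurons (SD, n = 2 each), a log2 fold change of -0.49 ± 0.09 (adjusted p = 0.00074), against -0.08 under the control virus. The most abundant Kv1 gene per kilobase, Kcna6, had log2 fold changes of -0.04 and 0.00 and was not called.

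Among the Kv2 genes, which encode delayed rectifiers of the soma and proximal dendrites, Kcnb2 rose under the control virus, by 0.31 ± 0.10 (adjusted p = 0.028) on the log2 scale, and was at -0.16 ± 0.11 (adjusted p = 0.305) under the H2BE virus. The Kcnb2 call was lost under 8 of 16 alternatives, with DESeq2 (0.32), with no filter on low counts (0.32), with the replicate block (0.31), with the length and GC correction (0.05) and with the length and GC correction plus the block (0.06). Kcnb2 also lost that call without BDNF replicate 2 (0.30), Control replicate 1 (0.27) or Control replicate 2 (0.33). Among the Kv3 genes, whose fast channels allow high firing rates, Kcnc1 fell under the H2BE virus at -0.51 ± 0.08 (adjusted p = 0.00018), and so did Kcnc4 at -0.37 ± 0.11 (adjusted p = 0.025). Under the control virus their log2 fold changes were -0.20 ± 0.07 (adjusted p = 0.051) and -0.06 ± 0.10 (adjusted p = 0.687). The difference between the viruses was called for neither Kcnb2 nor any of the 4 Kv3 genes. The Kcnc4 call was lost with DESeq2 (-0.37), with the length and GC correction (-0.29) and with the length and GC correction plus the block (-0.29). Kcnc4 also lost that call without H2BE+BDNF replicate 2 (-0.22) or H2BE replicate 2 (-0.23). The summed Kv3 level per kilobase was 35.9 ± 0.73 in H2BE+BDNF against 47.3 ± 2 in H2BE neurons, and 42.7 ± 2 in BDNF against 46.8 ± 0.37 in Control neurons. Markers of interneurons, cells known for Kv3 channels, summed to 1697 to 1765 CPM in H2BE+BDNF against 1765 to 1856 CPM in H2BE neurons, and to 1967 to 2165 CPM in BDNF against 1977 to 2160 CPM in Control neurons, with Pvalb at or near 0, and their part in the Kv3 values was not tested.

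Kv4 genes carry the A-type current of dendrites, and all 3 stayed within 0.25 of zero on the log2 scale in both BDNF comparisons. edgeR and DESeq2 each called 0 of 3 there, and 0 of 3 had an unadjusted p under 0.05. Kcnd2 averaged 134 ± 14.2 CPM in H2BE+BDNF against 152 ± 14.5 CPM in H2BE neurons, and 138 ± 13.8 CPM in BDNF against 144 ± 5 CPM in Control neurons. Of the Kv7 genes, which encode M-type channels that damp repetitive firing, Kcnq5 at -0.62 ± 0.08 (adjusted p = 1.8e-05) and Kcnq3 at -0.24 ± 0.08 (adjusted p = 0.028) fell under the H2BE virus. The Kcnq3 call was lost with DESeq2 (-0.24) and with all 10 libraries (-0.23). Kcnq3 also lost that call without H2BE+BDNF replicate 2 (-0.23), H2BE+BDNF replicate 3 (-0.24), H2BE replicate 2 (-0.26) or H2BE replicate 3 (-0.23). Their log2 fold changes under the control virus were -0.19 ± 0.07 (adjusted p = 0.051) and 0.12 ± 0.07 (adjusted p = 0.231). The difference between the viruses was called for 0 of 4 Kv7 genes.

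The Kcnh genes, which encode the EAG, ERG and ELK channels, split by member. Kcnh2 (chr5:24319589-24351604), an ERG channel that repolarises cells and limits their firing, had 70.5 and 73.8 CPM in H2BE+BDNF neurons, against 39.4 and 37.8 CPM in H2BE neurons, and 79.9 and 83.7 CPM in BDNF neurons, against 39.9 and 39.8 CPM in Control neurons. All samples with BDNF were above all samples without it, with log2 fold changes of 0.90 ± 0.08 (adjusted p = 1.3e-06) under the H2BE virus and 1.02 ± 0.08 (adjusted p = 7.1e-08) under the control virus. A second ERG gene, Kcnh7, rose under the control virus at 0.47 ± 0.11 (adjusted p = 0.0038) and was at 0.10 ± 0.12 (adjusted p = 0.583) under the H2BE virus. The difference between the viruses was called for 0 of 8 Kcnh genes. The Kcnh7 call was lost with DESeq2 (0.46), and without Control replicate 1 (0.33), and its value was 0.24 with the length and GC correction, 0.22 with the block added and 0.29 without BDNF replicate 2. The ELK gene Kcnh3 (chr15:99224861-99242817), expressed mainly in forebrain, had 27.9 and 33.1 CPM in H2BE+BDNF neurons, against 57.3 and 45.7 CPM in H2BE neurons, and 27.7 and 30.7 CPM in BDNF neurons, against 47.4 and 43.4 CPM in Control neurons. It fell under both viruses with no overlap, at -0.77 ± 0.12 (adjusted p = 0.00018) and -0.61 ± 0.11 (adjusted p = 0.00052). The EAG gene Kcnh1 fell at -0.65 ± 0.14 (adjusted p = 0.0027) under the H2BE virus and -0.48 ± 0.12 (adjusted p = 0.0078) under the control virus, the second of which was lost without BDNF replicate 1 (-0.30) or Control replicate 2 (-0.35). Kcnh5, the other EAG gene (chr12:74897220-75177332), had 2.38 and 2.87 CPM in H2BE+BDNF neurons, against 4.09 and 5.94 CPM in H2BE neurons, and 1.99 and 2.61 CPM in BDNF neurons, against 3.86 and 5.64 CPM in Control neurons. It was called under the control virus, at -1.07 ± 0.33 (adjusted p = 0.02), and not under the H2BE virus, at -0.91 ± 0.36 (adjusted p = 0.075), although neither pair of groups overlapped. The Kcnh5 call was lost with DESeq2 (-1.12), and without BDNF replicate 1 (-0.76) or Control replicate 2 (-0.81).

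Silent Kv subunits, which do not form channels alone, gave 2 rises in each comparison, Kcnv1 at 0.48 ± 0.11 (adjusted p = 0.0044) under the H2BE virus and 0.53 ± 0.10 (adjusted p = 0.00082) under the control virus, and Kcnf1 at 0.32 ± 0.10 (adjusted p = 0.02) and 0.35 ± 0.09 (adjusted p = 0.0076). The Kcnf1 call under the H2BE virus was lost without H2BE+BDNF replicate 3 (0.28), H2BE replicate 2 (0.35) or H2BE replicate 3 (0.30). Kcnf1 was not called under the control virus without BDNF replicate 1 (0.19) or Control replicate 1 (0.27). The Kcnv1 call under the H2BE virus was lost without H2BE replicate 2 (0.36). Kcnv1 was not called under the control virus without Control replicate 1 (0.38). Kcns1 (chr2:164163619-164171113) had 1.07 and 1.29 CPM in H2BE+BDNF neurons, against 4.09 and 2.77 CPM in H2BE neurons, and 2.26 and 1.72 CPM in BDNF neurons, against 3.09 and 2.05 CPM in Control neurons. These are low values, 9 counts in each H2BE+BDNF library and 29 and 14 in the H2BE libraries, and the H2BE+BDNF samples lay below the H2BE samples while BDNF and Control overlapped. The log2 fold change was -1.57 ± 0.42 (adjusted p = 0.012) under the H2BE virus and -0.47 ± 0.34 (adjusted p = 0.320) under the control virus. The Kcns1 call was lost with DESeq2 (-1.56), and without H2BE+BDNF replicate 2 (-1.43) or H2BE replicate 2 (-1.23). The summed level of the 7 silent subunits per kilobase was 43.5 ± 1.8 in H2BE+BDNF against 38.0 ± 0.34 in H2BE neurons, and 43.2 ± 1.1 in BDNF against 34.6 ± 0.6 in Control neurons.

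The calcium-binding KChIPs, auxiliary subunits of Kv4, held the member with the largest called rise under the control virus. Kcnip3, also called calsenilin or DREAM and known as well as a calcium-regulated transcriptional repressor, lies at chr2:127456498-127522094 and had 44.5 and 51.9 CPM in H2BE+BDNF neurons, against 18.9 and 19.0 CPM in H2BE neurons, and 52.0 and 42.1 CPM in BDNF neurons, against 16.0 and 16.8 CPM in Control neurons. The samples with BDNF stood far above those without, with log2 fold changes of 1.34 ± 0.13 (adjusted p = 1.9e-06) under the H2BE virus and 1.49 ± 0.12 (adjusted p = 1.5e-07) under the control virus. Kcnip4 (chr5:48389502-49524907), another KChIP, had 6.19 and 8.02 CPM in H2BE+BDNF neurons, against 14.7 and 17.8 CPM in H2BE neurons, and 8.93 and 10.1 CPM in BDNF neurons, against 16.7 and 22.2 CPM in Control neurons. Its levels with BDNF were all below those without, and it fell at -1.19 ± 0.21 (adjusted p = 0.00059) and -0.98 ± 0.17 (adjusted p = 0.00043). Kcnip1 rose under the control virus at 0.29 ± 0.09 (adjusted p = 0.028), and Kcnip2 was not called at 0.08 and -0.16. The Kcnip1 call was lost with DESeq2 (0.29) and with the length and GC correction plus the block (0.23). Kcnip1 also lost that call without BDNF replicate 2 (0.17) or Control replicate 1 (0.20). The summed KChIP level per kilobase was 41.3 ± 2.4 in H2BE+BDNF against 32.4 ± 0.89 in H2BE neurons, and 44.0 ± 1.6 in BDNF against 35.1 ± 1.8 in Control neurons.

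Among Kv beta subunits, which bind the cytoplasmic side of Kv1 channels, Kcnab1 (chr3:65109384-65378223) had 30.95 and 36.5 CPM in H2BE+BDNF neurons, against 19.3 and 19.4 CPM in H2BE neurons, and 29.0 and 25.2 CPM in BDNF neurons, against 20.7 and 23.6 CPM in Control neurons. The H2BE+BDNF samples were above both H2BE samples by a wide margin and the BDNF samples above the Control samples by little. It rose under the H2BE virus at 0.80 ± 0.13 (adjusted p = 0.00037) and was not called under the control virus at 0.28 ± 0.12 (adjusted p = 0.087). That difference between viruses, 0.52 ± 0.18, did not pass its own test (adjusted p = 0.171). Kcnab2, the most abundant of them per kilobase, fell under both viruses, at -0.34 ± 0.08 (adjusted p = 0.0048) and -0.27 ± 0.07 (adjusted p = 0.0097). The Kcnab2 call under the H2BE virus was lost without H2BE+BDNF replicate 2 (-0.29) or H2BE replicate 2 (-0.32). Kcnab2 was not called under the control virus without BDNF replicate 1 (-0.20) or Control replicate 1 (-0.23). Kcnab3 rose under the control virus at 0.73 ± 0.22 (adjusted p = 0.019), which was lost with DESeq2 (0.69), and without Control replicate 1 (0.35). Kcne5, an auxiliary subunit of low level, was not called and had 0 counts in BDNF replicate 2, where 3 counts would be 0.241 CPM.

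For calcium-activated channels, Kcnma1, the pore of the large-conductance BK channel (chr14:23289431-24014491), had 123 and 139.5 CPM in H2BE+BDNF neurons, against 119.6 and 111 CPM in H2BE neurons, and 151 and 152 CPM in BDNF neurons, against 80.2 and 96.6 CPM in Control neurons. It rose under the control virus, where the BDNF samples lay far above the Control samples, at 0.74 ± 0.08 (adjusted p = 5.2e-06), and was at 0.19 ± 0.09 (adjusted p = 0.129) under the H2BE virus. With the length and GC correction the rise was 0.49 and still called. Its neuronal beta subunit gene Kcnmb4 (chr10:116417861-116473878), which slows BK gating, had 5.36 and 7.74 CPM in H2BE+BDNF neurons, against 11.0 and 9.11 CPM in H2BE neurons, and 5.01 and 4.58 CPM in BDNF neurons, against 10.1 and 9.41 CPM in Control neurons. Kcnmb4 fell under both viruses, at -0.65 ± 0.22 (adjusted p = 0.043) and -1.07 ± 0.20 (adjusted p = 0.00081). The call under the H2BE virus was lost with DESeq2 (-0.64) and with the replicate block (-0.65). Kcnmb4 also lost that call without H2BE+BDNF replicate 2 (-0.39), H2BE replicate 2 (-0.49), H2BE replicate 3 (-0.76), Control replicate 1 (-0.65) or Control replicate 2 (-0.65). Under the control virus the Kcnmb4 call held in all 16 alternatives. Kcnmb2, an inactivating beta subunit, rose under the control virus at 0.38 ± 0.13 (adjusted p = 0.042), a call lost under 11 of 16 alternatives, with DESeq2 (0.38), with no filter on low counts (0.38), with the replicate block (0.35) and with the length and GC correction plus the block (0.42). Kcnmb2 also lost that call without H2BE+BDNF replicate 2 (0.38), H2BE+BDNF replicate 3 (0.38), BDNF replicate 2 (0.22), H2BE replicate 2 (0.38), H2BE replicate 3 (0.38), Control replicate 1 (0.34) or Control replicate 2 (0.39). Kcnn3, a small-conductance SK channel of the afterhyperpolarisation (chr3:89520164-89675132), had 16.3 and 19.2 CPM in H2BE+BDNF neurons, against 13.1 and 14.3 CPM in H2BE neurons, and 18.7 and 20.4 CPM in BDNF neurons, against 8.99 and 11.97 CPM in Control neurons. All its samples with BDNF were above those without, and the log2 fold change was 0.38 ± 0.16 (adjusted p = 0.098) under the H2BE virus and 0.83 ± 0.15 (adjusted p = 0.00041) under the control virus. Kcnn2, another SK gene, fell under the H2BE virus at -0.61 ± 0.17 (adjusted p = 0.016) and was at -0.30 ± 0.15 (adjusted p = 0.152) under the control virus. The difference between the viruses was called for 0 of 3 SK genes. The Kcnn2 call was lost without H2BE+BDNF replicate 2 (-0.39) or H2BE replicate 2 (-0.57). Among the sodium-activated channels Kcnt2 rose under the control virus at 0.42 ± 0.13 (adjusted p = 0.021), which was lost with DESeq2 (0.42), and without BDNF replicate 2 (0.31) or Control replicate 1 (0.32), and Kcnt1 was not called. Kcnu1, a BK relative best known from sperm, averaged 2.90 ± 0.45 CPM in H2BE+BDNF against 5.01 ± 0.09 CPM in H2BE neurons, and 3.22 ± 0.3 CPM in BDNF against 3.80 ± 0.54 CPM in Control neurons, and was not called.

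Of the 10 inward rectifiers 4 fell and 0 rose in each BDNF comparison by edgeR, where 12.3% of all genes were lower under the H2BE virus and 14.6% under the control virus. DESeq2 called 3 of 10 under the H2BE virus and 2 of 10 under the control virus, where it called 8.51% and 8.18% of all genes lower. Kcnj2, a classical strong rectifier (chr11:111066164-111076821), had 6.31 and 7.16 CPM in H2BE+BDNF neurons, against 17.6 and 14.1 CPM in H2BE neurons, and 5.67 and 6.78 CPM in BDNF neurons, against 13.5 and 12.3 CPM in Control neurons. The samples with BDNF were below all samples without it, and the log2 fold change was -1.25 ± 0.19 (adjusted p = 0.00018) under the H2BE virus and -1.13 ± 0.18 (adjusted p = 0.00015) under the control virus. Kcnj12 (chr11:61022564-61071131), a second strong rectifier, had 6.79 and 5.16 CPM in H2BE+BDNF neurons, against 9.45 and 10.9 CPM in H2BE neurons, and 5.30 and 4.00 CPM in BDNF neurons, against 8.66 and 7.52 CPM in Control neurons. It likewise fell without overlap, at -0.74 ± 0.23 (adjusted p = 0.025) and -0.78 ± 0.21 (adjusted p = 0.011), and neither call held throughout. Kcnj12 was not called under the H2BE virus with DESeq2 (-0.76). Kcnj12 also lost that call without H2BE+BDNF replicate 3 (-0.57), H2BE replicate 2 (-0.86) or H2BE replicate 3 (-0.65). Kcnj12 was not called under the control virus with DESeq2 (-0.76), and without BDNF replicate 2 (-0.56) or Control replicate 1 (-0.71). The other genes that fell under both viruses were the G protein-gated Kcnj9, at -0.65 ± 0.15 (adjusted p = 0.0042) and -0.53 ± 0.13 (adjusted p = 0.0055), and Kcnj4, at -0.34 ± 0.10 (adjusted p = 0.019) and -0.29 ± 0.09 (adjusted p = 0.023). The Kcnj9 call under the H2BE virus was lost without H2BE+BDNF replicate 2 (-0.50) or H2BE replicate 2 (-0.48). Kcnj9 was not called under the control virus without Control replicate 1 (-0.53). The Kcnj4 call under the H2BE virus was lost with the length and GC correction (-0.29). Kcnj4 also lost that call without H2BE+BDNF replicate 3 (-0.28), H2BE replicate 2 (-0.40) or H2BE replicate 3 (-0.29). Kcnj4 was not called under the control virus with DESeq2 (-0.28), with the length and GC correction (-0.21) and with the length and GC correction plus the block (-0.23). Kcnj4 also lost that call without BDNF replicate 1 (-0.14) or Control replicate 1 (-0.21). Kcnj4 was at -0.46 without BDNF replicate 2. Kcnj11, the pore of ATP-sensitive channels, and the G protein-gated Kcnj3, Kcnj5 and Kcnj6 were not called. The summed inward rectifier level per kilobase was 73.8 ± 2.9 in H2BE+BDNF against 96.7 ± 0.76 in H2BE neurons, and 81.2 ± 11.7 in BDNF against 98.6 ± 7.9 in Control neurons. Kcnj10 and Kcnj16, known from astrocytes, were at most 3.95 CPM in any sample and were not called, and the part of astrocytes, whose list sums are given above, was not tested.

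Tandem-pore channels gave the member with the largest rise under the H2BE virus. Kcnk13 (chr12:99964499-100062682), a THIK-type leak channel that is also expressed by microglia, had 6.55 and 6.88 CPM in H2BE+BDNF neurons, against 2.26 and 0.990 CPM in H2BE neurons, and 7.65 and 8.66 CPM in BDNF neurons, against 3.60 and 2.39 CPM in Control neurons. Its samples with BDNF were above all samples without it, and the log2 fold change was 1.96 ± 0.34 (adjusted p = 0.00044) under the H2BE virus and 1.35 ± 0.25 (adjusted p = 0.00058) under the control virus. The H2BE libraries held only 16 and 5 counts of Kcnk13, and the H2BE+BDNF libraries 55 and 48. The size of its rise under the H2BE virus is thus uncertain, and over the 16 alternatives it ran from 1.57 to 2.74. The 8 microglial markers together summed to 22.2 to 23.2 CPM in H2BE+BDNF against 5.35 to 6.91 CPM in H2BE neurons, and to 22.1 to 23.8 CPM in BDNF against 9.58 to 10.1 CPM in Control neurons. Of the 3 markers that passed the filter, 2 rose under the H2BE virus and 1 under the control virus, where 13.4% and 16.8% of all genes tested were called higher. Cd68, a lysosomal protein, rose under both and made up most of the difference in the sums, at log2 fold changes of 2.38 ± 0.19 (adjusted p = 2.7e-07) and 1.84 ± 0.16 (adjusted p = 2.8e-07). Aif1, a calcium-binding protein of microglia, had 1.55 and 1.15 CPM in H2BE+BDNF neurons, against 0.141 and 0.198 CPM in H2BE neurons, and 0.782 and 0.654 CPM in BDNF neurons, against 1.43 and 0.342 CPM in Control neurons, and its log2 fold change was 2.95 ± 0.88 (adjusted p = 0.022) under the H2BE virus and -0.75 ± 0.56 (adjusted p = 0.336) under the control virus. Among markers under the filter, P2ry12 stayed at or below 0.282 CPM in every sample and Tmem119 had no count in 7 of 8 samples. The part of these cells in the Kcnk13 values was not tested. Kcnk3, an acid-sensitive leak channel (chr5:30588170-30625271), had 49.5 and 47.8 CPM in H2BE+BDNF neurons, against 34.7 and 33.9 CPM in H2BE neurons, and 50.1 and 54.5 CPM in BDNF neurons, against 36.1 and 32.3 CPM in Control neurons. It rose without overlap at 0.51 ± 0.09 (adjusted p = 0.00089) and 0.61 ± 0.08 (adjusted p = 4.3e-05). Kcnk2, the TREK channel that opens on stretch and lipids (chr1:189207930-189402273), had 21.8 and 19.6 CPM in H2BE+BDNF neurons, against 42.0 and 43.4 CPM in H2BE neurons, and 24.9 and 28.3 CPM in BDNF neurons, against 45.2 and 42.4 CPM in Control neurons. It fell under both viruses, at -1.03 ± 0.11 (adjusted p = 4.1e-06) and -0.70 ± 0.09 (adjusted p = 3.2e-05). Under the control virus Kcnk12 rose at 0.54 ± 0.19 (adjusted p = 0.044) and Kcnk10 at 0.32 ± 0.12 (adjusted p = 0.043), while Kcnk1, Kcnk4 and Kcnk9 were not called. The Kcnk12 call was lost with DESeq2 (0.57) and with crossed numbers (0.54). Kcnk12 also lost that call without H2BE+BDNF replicate 2 (0.54), BDNF replicate 1 (0.47), Control replicate 1 (0.81) or Control replicate 2 (0.40). The Kcnk10 call was lost under 10 of 16 alternatives, with DESeq2 (0.33), with no filter on low counts (0.33), with the replicate block (0.30), with the length and GC correction (0.18) and with the length and GC correction plus the block (0.17). Kcnk10 also lost that call without BDNF replicate 2 (0.21), H2BE replicate 2 (0.32), H2BE replicate 3 (0.32), Control replicate 1 (0.29) or Control replicate 2 (0.34). Kcnq1ot1, the noncoding RNA opposite Kcnq1, and Kcnmb4os2, opposite Kcnmb4, were not called. Exons of 24 of the 71 members overlap a gene on the other strand, among them Kcnmb4, Kcnma1, Kcnk2, Kcnk3, Kcnh3, Kcnh7, Kcnip4 and Kcnab1, and the sources used here do not say whether counting used strand, so reads of such pairs cannot be told apart.

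**Figure D3:**
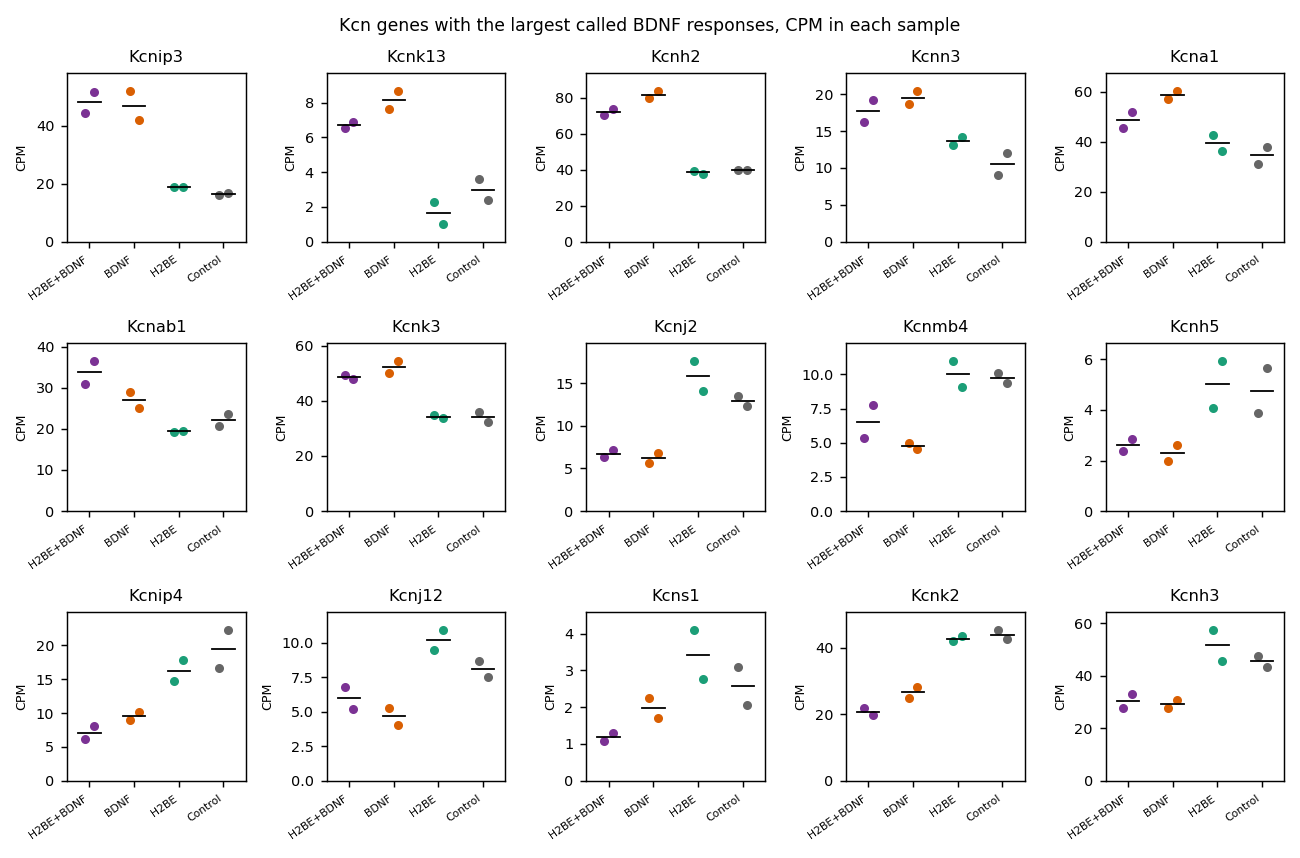
CPM in each sample for the 15 Kcn genes among the first 5 by fold change in a direction of either BDNF comparison, with H2BE+BDNF, BDNF, H2BE and Control neurons from left to right, points for samples and bars for means (n = 2). Kcnip3 and Kcnh2 are high in both groups with BDNF, Kcnk2 and Kcnj2 are low there, and the axes start at 0.

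Side by side, the BDNF responses of the 71 members had the same sign under both viruses for 55 genes, 77.5%, where 71.2% of all 13452 genes did, and these comparisons share no samples. Calls in the same direction under both viruses covered 17 members, 6 higher and 11 lower, which is 68.0% of the 25 calls under the H2BE virus and 54.8% of the 31 calls under the control virus, and 0 members were called in opposite directions. Over all genes 2190 were called in the same direction under both, which is 63.2% of the calls under the H2BE virus and 51.8% of those under the control virus, and 30 were called in opposite directions. Another 32 members were called under neither virus. Across the 71 genes the log2 fold changes correlated with Pearson's r of 0.81 and Spearman's rho of 0.79, where r over all 13452 genes was 0.71. Genes are not independent replicates, and all libraries come from the same series. The members called higher under both were Kcnip3, Kcnk13, Kcnh2, Kcnk3, Kcnv1 and Kcnf1. Among those called lower under both were Kcnj2, Kcnip4, Kcnk2, Kcnmb4, Kcnh3, Kcnj12, Kcnh1, Kcnj9, Kcnab2 and Kcnj4.

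**Figure D4:**
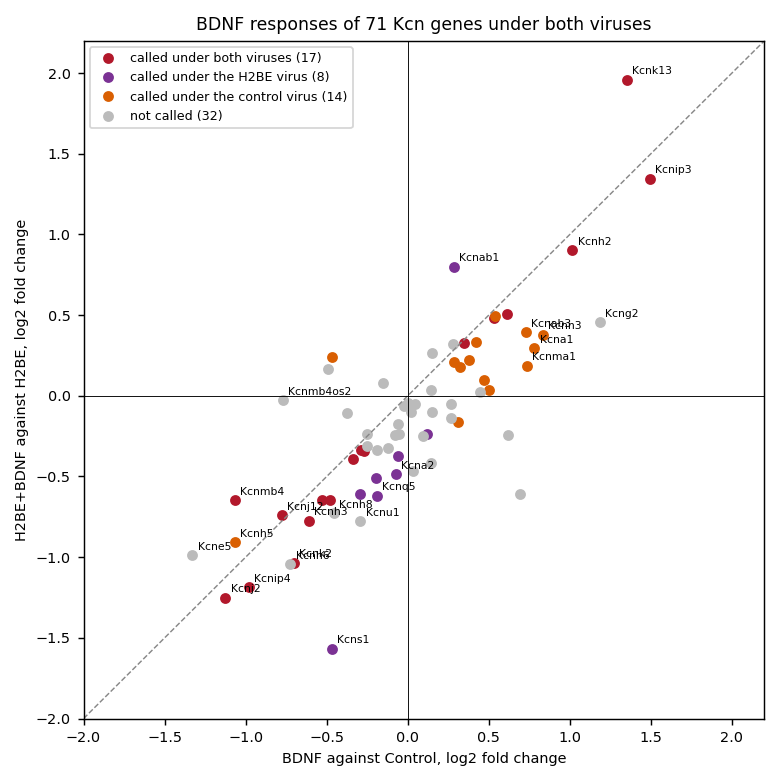
BDNF response of the 71 Kcn genes under the H2BE virus (vertical) and the control virus (horizontal), each as a log2 fold change, with the line of equal values dashed. The 17 genes called under both viruses lie in the upper right and lower left, and 57 of 71 points lie below the dashed line.

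H2BE alone changed few members. Against Control neurons, H2BE neurons had 2 of 71 members higher and 0 lower, where 2.13% of all genes were called, 1.33% higher and 0.803% lower. At an unadjusted p under 0.05 there were 16 members, 22.5%, where 18.2% of all genes were, and DESeq2 called 2 members and 2.21% of all genes. Kcnma1, with the values given above, had a log2 fold change of 0.37 ± 0.09 (adjusted p = 0.041), and both H2BE samples were above both Control samples. After the correction for transcript length and GC content its log2 fold change was 0.20 (adjusted p = 0.324), and no member was called. The Kcnma1 call between H2BE and Control was lost with the replicate block (0.27), with the length and GC correction (0.20), with the length and GC correction plus the block (0.14) and with crossed numbers (0.36). Kcnma1 also lost that call without H2BE replicate 2 (0.31), H2BE replicate 3 (0.42) or Control replicate 1 (0.23). Leaving out either BDNF library, whose group is not part of this comparison, gave 8 members higher and 1 lower, where 6.46% of all genes were called in either case. The median log2 fold change of the members was 0.12, against 0.00 for all genes, and 0.04 after that correction. Median transcript length was 4058 bases for the members and 3483 bases for all genes tested. Other members with large fitted values, such as Kcnj16 at 1.09 ± 0.33 (adjusted p = 0.093) and Kcnb2 at 0.41 ± 0.11 (adjusted p = 0.061), did not pass.

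With BDNF present, edgeR called 0 of 71 members between H2BE+BDNF and BDNF neurons, where 0.0223% of all genes were called, 0.0149% higher and 0.00743% lower. An unadjusted p under 0.05 was reached by 13 members, 18.3%, where 11.4% of all genes did so, DESeq2 called 0 members and 0.0743% of all genes, and the smallest adjusted p of a member was 0.161. That was Kcnc2, with 43.6 and 45.8 CPM in H2BE+BDNF neurons and 53.8 and 74.4 CPM in BDNF neurons, a log2 fold change of -0.51 ± 0.12. Without BDNF replicate 1, 1 member was higher and 9 were lower, where 5.54% of all genes were called, 1.68% higher and 3.86% lower.

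The BDNF response itself was smaller under the H2BE virus for 2 members and larger for 0, where 1.15% of all genes were called, 0.327% higher and 0.825% lower. The difference, H2BE virus minus control virus, was -0.55 ± 0.12 (adjusted p = 0.043) for Kcnma1, which was also called between H2BE and Control, and both tests use the same H2BE and Control libraries. DESeq2 called 3 members, 4.23%, and 1.46% of all genes, and 13 members, 18.3%, had an unadjusted p under 0.05, where 16.7% of all genes did. With the length and GC correction the difference for Kcnma1 was -0.29 (adjusted p = 0.387). The Kcnma1 call on the difference was lost with the length and GC correction (-0.29), with the length and GC correction plus the block (-0.29) and with crossed numbers (-0.54). Kcnma1 also lost that call without H2BE+BDNF replicate 2 (-0.46), H2BE+BDNF replicate 3 (-0.64), H2BE replicate 2 (-0.49), H2BE replicate 3 (-0.60) or Control replicate 1 (-0.41). Without BDNF replicate 1, 8 members were lower, where 4.09% of all genes were. Kcnq5 did not pass, at -0.43 ± 0.10 (adjusted p = 0.058). The sign of the difference was negative for 57 of 71 members, 80.3%, against 51.1% of all genes tested, with a median of -0.15 against -0.01. After the correction it was negative for 48 members, 67.6%, against 49.5% of all genes, with a member median of -0.08. By subfamily the median difference was negative in 15 of 18, among them -0.32 for the silent subunits, -0.31 for SK, -0.26 for Kv3, -0.23 for Kv7 and -0.09 for the inward rectifiers. It was positive for the BK beta subunits at 0.13, the single KCNE gene at 0.34 and the noncoding pair at 0.17.

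**Figure D5:**
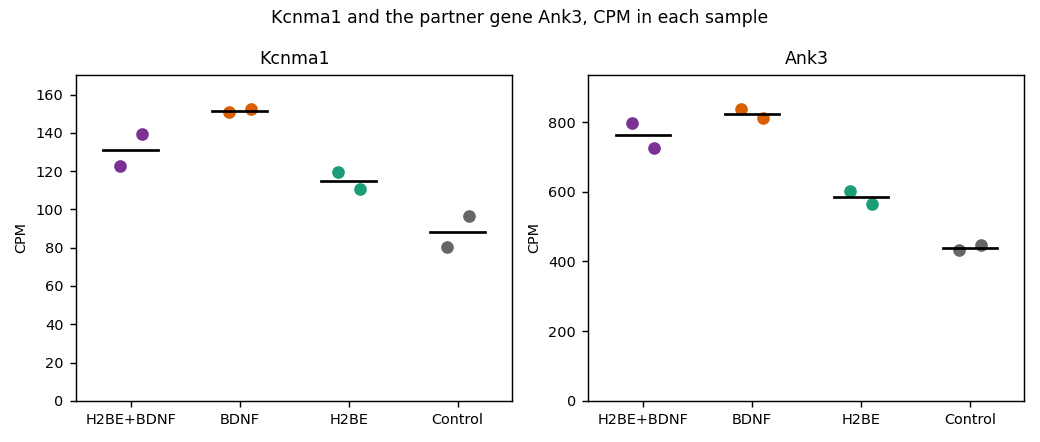
CPM of Kcnma1 and of Ank3, a gene of a channel partner, in each sample, with H2BE+BDNF, BDNF, H2BE and Control neurons from left to right, points for samples and bars for means (n = 2). Control neurons are lowest and BDNF neurons highest for both genes, and the axes start at 0.

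Genes of channel partners outside the Kcn symbols also moved. Of 23 listed partner genes 19 passed the filter. Under the H2BE virus 2 rose and 6 fell, where 13.4% of all genes tested were called higher and 12.3% lower. Under the control virus 5 rose and 4 fell, where 16.8% of all genes were higher and 14.6% lower. Ank3, the ankyrin that anchors Kv7 channels at the axon initial segment, had 797 and 726 CPM in H2BE+BDNF neurons, against 603 and 566 CPM in H2BE neurons, and 836 and 811 CPM in BDNF neurons, against 433 and 446 CPM in Control neurons. It rose under both viruses, at 0.39 ± 0.06 (adjusted p = 9.6e-05) and 0.86 ± 0.06 (adjusted p = 1.5e-08). Ank3 was also higher in H2BE than in Control neurons, at 0.40 ± 0.06 (adjusted p = 0.0057), and its BDNF response was smaller under the H2BE virus, at -0.47 ± 0.08 (adjusted p = 0.018). The Ank3 call between H2BE and Control was lost with the length and GC correction (0.24) and with crossed numbers (0.40). Ank3 also lost that call without H2BE replicate 2 (0.36) or Control replicate 1 (0.37). The call on the difference of the Ank3 responses was lost with the length and GC correction (-0.23), with the length and GC correction plus the block (-0.23) and with crossed numbers (-0.47). Ank3 also lost that call without H2BE+BDNF replicate 3 (-0.41), H2BE replicate 2 (-0.43) or Control replicate 1 (-0.43). Dlg4, the scaffold that clusters Kv1 channels at synapses, rose at 0.49 ± 0.06 (adjusted p = 1.6e-05) and 0.64 ± 0.06 (adjusted p = 4.9e-07). Adam11, a partner of Kv1 channels at cerebellar terminals in mouse, fell at -1.10 ± 0.09 (adjusted p = 2e-07) and -1.04 ± 0.08 (adjusted p = 1.1e-07). Lrrc55, a BK auxiliary protein, fell at -0.56 ± 0.11 (adjusted p = 0.0015) and -0.72 ± 0.10 (adjusted p = 5.8e-05), and Amigo1, a partner of Kv2, fell at -0.42 ± 0.08 (adjusted p = 0.00092) and -0.24 ± 0.07 (adjusted p = 0.018). Dpp10, a partner of Kv4, fell at -0.34 ± 0.09 (adjusted p = 0.011) and -0.35 ± 0.08 (adjusted p = 0.0046). Adam22 (-0.30) and Cntnap2 (-0.29) fell under the H2BE virus, and Cntnap1 (0.45) and Adam23 (0.36) rose under the control virus. The Cntnap1 call was lost with DESeq2 (0.47), and without BDNF replicate 2 (0.13) or Control replicate 2 (0.36). The Amigo1 call under the control virus was lost with DESeq2 (-0.23) and with no filter on low counts (-0.23). Amigo1 also lost that call without Control replicate 1 (-0.25) or Control replicate 2 (-0.24). The Dpp10 call under the H2BE virus was lost without H2BE+BDNF replicate 2 (-0.31) or H2BE replicate 3 (-0.24). The Adam22 call was lost without H2BE+BDNF replicate 2 (-0.23) or H2BE replicate 2 (-0.24).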

How the data were processed

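PolyA RNA of cultured mouse cortical neurons was sequenced. The authors deposited a table of raw counts per Ensembl gene and a second table of signal values, which are the counts of each library divided by 1 size factor; counts were used for all tests, and the second table only for symbols. The submitters' processing notes name mm10, SAMtools, DESeq2 and deepTools; neither the aligner nor the counting tool and its strand setting is given in the sources used here. All columns were mapped to samples by title.

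Libraries were compared gene by gene, and the third Control and BDNF libraries, which hold subsets of the counts of the first, were not used in the tests. For levels, CPM scaled by TMM over all 10 libraries were taken and both copies averaged as 1 sample. filterByExpr (minimum count 10, minimum total 15) kept 13452 genes with 99.78% of counts. Under R 4.3.3 with limma 3.58.1, the quasi-likelihood test of edgeR 4.0.16 was fitted over the 4 groups with 4 residual degrees of freedom, Benjamini-Hochberg adjusted over all genes and called at 0.05. A standard error is the log2 fold change divided by the square root of F. The script was tested on simulated counts. Lengths and coordinates are from GENCODE M21, which holds all 71 members, and levels per kilobase use the longest transcript.

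Results of some genes are not reported here, although they enter every count and sum, and the figures that name genes leave them out. The members and gene lists were chosen with earlier results of these data known. Members are named with values where called, up to 15 per direction in each BDNF comparison, with every sample for up to 5; Kcnk10, Kcnb2 and Kcnq3, called beyond those places, and the uncalled members named in the text were added after their values were seen. Also named are the member of each subfamily with the highest CPM and the members beside the threshold. Alternatives were RLE scaling, DESeq2 1.42.0, no filter, all 10 libraries, a replicate block, a lowess correction (span 0.3) for length and GC content, both together, a block with crossed numbers, and each library left out, where the group left with 1 library is assumed to vary like the others. The fit on all 10 libraries took the third Control and BDNF libraries as further replicates. Crossed numbers pair each library with the differently numbered library of the other BDNF state under the same virus.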

Additional observations from a re-analysis of the deposited data

Results flagged for a closer look

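For Kcnma1, the BK pore, the BDNF response differed between the viruses by a test of the difference itself in the fit over all genes. The response under the H2BE virus minus that under the control virus was -0.55 on the log2 scale (adjusted p = 0.043). Over 16 alternative settings the value ran from -0.67 to -0.29, and 8 of 16 ended the call.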

How the results depend on the processing

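With BDNF under the control virus, DESeq2 called 10 members higher and 8 lower, where edgeR called 18 and 13; with 1 library left out the counts ran from 8 to 18 higher and from 7 to 15 lower. Under the H2BE virus the leave-one-out counts ran from 5 to 8 higher and from 8 to 23 lower. For H2BE against Control, 2 members higher became 6 with no filter on low counts, 11 with all 10 libraries, 1 with the replicate block, and 0 with the length and GC correction, alone or with the block, and with crossed numbers; leaving out a library gave 0 to 8 higher and 0 to 1 lower. For H2BE+BDNF against BDNF, 0 higher became 1 with the replicate block, alone or with the correction, and 0 lower became 2 with no filter, 2 with the block and 1 with block and correction; leaving out a library gave 0 to 1 higher and 0 to 9 lower. For the difference of responses, 2 lower became 5 with no filter, 9 with all 10 libraries, and 0 with the correction, alone or with the block, and with crossed numbers; leaving out a library gave 0 to 8 lower. Shares over all genes moved too. For H2BE against Control, 1.33% of all genes were higher in the main fit, 1.29% with no filter and 6.1% with all 10 libraries. They were 0.833% with the block, 0.112% with the correction and 0.0297% with crossed numbers. For the difference, 0.825% were lower in the main fit, 1.18% with no filter, 5.17% with all 10 libraries and 0.0297% with the correction. For H2BE+BDNF against BDNF, 0.00743% were lower, 0.603% with no filter and 0.632% with the block. The cause was not tested. Of the members called with BDNF (31 under the control virus, 25 under the H2BE virus), 13 under each virus kept their call under all 16 alternatives, and no called value turned its sign. How many of all called genes kept their call in this way was not counted. With all 10 libraries, where the subset libraries count as replicates, 47.6% of all genes were called under the control virus. Crossed numbers gave 36.3%, against 31.4% in the main fit. Under the H2BE virus these shares were 29.3%, 28.3% and 25.8%. Over all genes, the correction left 18 calls of 287 for H2BE against Control and 5 of 155 for the difference, and leaving out Control replicate 1 left 2278 of 4225 for BDNF against Control. Deviations of same-numbered libraries from their group mean correlated at -0.299 to -0.167. With 2 samples per group, differently numbered libraries take the same values with a positive sign. These correlations therefore cannot show whether libraries were paired in some other way. The crossed pairing was chosen after seeing the data. Member thresholds of 0.5 and 2 CPM gave 74 and 66 members, with every count within 1.5 times. With 2 samples per group and 5058074 counts in the shallowest library, depth limits most what can be seen in members of low CPM.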

Other observations

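Several members differed widely between the samples of 1 group. Kcns3, a silent Kv subunit, had 1.69 and 6.21 CPM in the BDNF samples, and no other group spanned more than 2.82 to 4.36 CPM. Kcnj3 had 72.9 and 117 CPM and Kcnc2 53.8 and 74.4 CPM in the same BDNF samples. Kcnq1ot1 had 41.2 and 19.5 CPM in H2BE+BDNF neurons, 36.4 and 20.4 CPM in BDNF neurons, 37.7 and 29.5 CPM in H2BE neurons and 26.0 and 19.2 CPM in Control neurons. The 15 Kcn symbols under the threshold, such as Kcnk6, Kcnj15 and Kcnq1, averaged at most 0.925 CPM and were not described.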
